A study of Homo sapiens with 12 samples.

Results

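Entry into mitosis was followed here through the RNA of 10 genes, CDK1, CCNA2, CCNB1, CCNB2, CDC25B, CDC25C, PLK1, AURKA, CDC20 and FOXM1, in leukemia cells that received prexasertib, a CHK1 inhibitor, or DMSO, its solvent. The genes were taken by their symbols from the deposited gene tables and make up 10 of their 44147 features. They were chosen with earlier results of these data known, so the shares of all genes given below are context only. RNA had been sequenced from CCRF-CEM cells, an established human T lymphoblast leukemia line. SLFN11, which acts on stalled replication forks, was knocked out in a derived line, and the parent line is SLFN11-positive and wild type by its labels. One group was knockout cells labelled as given 100 nM prexasertib for 6 h. The others were knockout cells labelled DMSO, parent cells labelled prexasertib at the same dose and time, and parent cells labelled DMSO. Each group held 3 libraries, 12 in all. The labels give no time for the DMSO controls, do not say how the gene was disrupted or whether the knockout line is 1 clone, and leave unsaid whether a group's 3 libraries are from 3 cultures. P-values therefore measure the spread between these libraries, which may be technical.

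A cell enters mitosis when the kinase CDK1, bound to an A-type or B-type cyclin, becomes active. The kinases WEE1 and PKMYT1 hold CDK1 inactive by phosphorylation, and CDC25 phosphatases remove these phosphates. Aurora A activates PLK1, which in turn favours CDC25 and opposes WEE1. CDC20 then directs the anaphase-promoting complex to destroy the cyclins, and FOXM1 is a transcription factor that acts, with the MuvB complex and B-MYB, on many genes of the G2 and M phases. The checkpoint kinase CHK1 restrains the CDC25 phosphatases.

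The treatment labels carry a conflict that touches every treatment result. For all 12 records, the library that the title names appears in the name of a file belonging to a record of the same line but of the opposite treatment. Each file was kept with its own record here, and "labelled" marks that choice throughout. Should the file names be right, every treatment difference changes sign, the comparisons of the lines under the 2 treatments trade places, and the interaction changes sign. The line labels are the same either way.

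The libraries held 47887791 to 77548202 exonic and 16764538 to 26736753 intronic reads each, and every member had at least 789 exonic and 160 intronic reads in every library. All 13 T lymphoblast markers were at 1 TPM or more in every library, summing to 1078 to 1108 TPM in knockout cells labelled prexasertib, 1028 to 1065 TPM in knockout cells labelled DMSO, 841 to 899 TPM in parent cells labelled prexasertib and 702 to 724 TPM in parent cells labelled DMSO. Of 5 B cell markers 2 reached that level (32.1 to 33.9 TPM summed in knockout cells labelled prexasertib, 31.7 to 35.1 TPM in knockout cells labelled DMSO, 20.9 to 23.2 TPM in parent cells labelled prexasertib and 16.1 to 17.1 TPM in parent cells labelled DMSO), of 5 myeloid markers none did, with sums of at most 0.409 TPM, and of 7 epithelial, fibroblast and erythroid markers 1 did, in knockout cells. Both sums were higher in knockout cells. The T lymphoblast sum was also higher in labelled prexasertib in both lines, and the B cell sum in parent cells, each without overlap, and their part in the treatment and line results was not tested. SLFN11 itself had 85.0, 90.7 and 89.4 CPM (exonic counts scaled to library size with TMM factors) in knockout cells labelled prexasertib, 65.9, 66.6 and 69.1 CPM in knockout cells labelled DMSO, 117, 119 and 117 CPM in parent cells labelled prexasertib and 100.4, 91.2 and 95.2 CPM in parent cells labelled DMSO. Its RNA was lower in the knockout line, by 0.41 on the log2 scale under labelled prexasertib and by 0.51 under labelled DMSO (SE 0.05 each, edgeR adjusted p = 5.55e-07 and 6.02e-09), but not absent. Its intronic reads went the other way, at 112, 111 and 111 CPM in knockout cells labelled prexasertib against 67.1, 76.5 and 74.9 CPM in parent cells labelled prexasertib, and 79.2, 77.4 and 77.4 CPM in knockout cells labelled DMSO against 62.3, 62.2 and 56.9 CPM in parent cells labelled DMSO. The knockout libraries were above the parent ones under both labels on introns, a difference for which no test was run. One library, parent labelled prexasertib replicate 1, had 30.3% of its gene reads in introns, against 23.9 to 26.4% in the other 11.

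The promoters of the members are shown because many G2 and M phase genes share 2 short promoter elements. The letters TTTGAA and TTCGAA are forms of the cell cycle genes homology region (CHR), which MuvB complexes bind, and CCAAT is the box bound by NF-Y. Other forms of the CHR were not searched. RefSeq promoters (GRCh38.p14, 300 bases around each start) were found for 8 members, all but AURKA and FOXM1. A gene was counted if any of its promoters held the letters, so genes with more promoters had more chances to match. TTTGAA, read on both strands, was present for 5 of the 8, against 18.2% of 27305 genes with any promoter in the table. TTCGAA was present for 1 of the 8 (CDC25B), against 1.8%. CCAAT on both strands was present for 8 of the 8, against 39.7% of all genes. Matches of different motifs were counted separately, whether or not they overlapped. In the 30-base windows that follow, capitals mark TTTGAA or TTCGAA. For each gene the window is from the promoter with the upstream match nearest its start. The first base of the match lies 13 (CDK1), 29 (CCNB2), 38 (CDC25B), 30 (CDC25C), 29 (PLK1) or 65 (CDC20) bases before that start.
CDK1, chr10:60778453-60778482, + strand: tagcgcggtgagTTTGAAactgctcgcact
CCNB2, chr15:59105105-59105134, + strand: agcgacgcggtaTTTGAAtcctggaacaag
CDC25B, chr20:3796260-3796289, + strand: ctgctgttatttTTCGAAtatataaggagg
CDC25C, chr5:138331817-138331846, - strand: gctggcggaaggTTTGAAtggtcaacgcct
PLK1, chr16:23678848-23678877, + strand: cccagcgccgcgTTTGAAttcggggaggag
CDC20, chr1:43358904-43358933, + strand: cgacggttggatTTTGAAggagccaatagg

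Longer stretches, the 150 bases before the start, are shown for 2 members with TTTGAA and for the 2 members with neither TTTGAA nor TTCGAA, CCNB1 and CCNA2. Here capitals mark TTTGAA and CCAAT, with CCAAT read as ATTGG where it lies on the opposite strand. A match describes these letters and is not evidence of a bound site. An absent match says only that the letters are not in the window, and not that the gene lacks a CHR.
CCNB2, chr15:59104996-59105145, + strand: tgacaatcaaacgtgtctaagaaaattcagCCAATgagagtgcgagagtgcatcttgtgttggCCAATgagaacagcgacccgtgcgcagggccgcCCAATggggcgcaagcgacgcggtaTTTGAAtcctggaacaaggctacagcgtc
PLK1, chr16:23678739-23678888, + strand: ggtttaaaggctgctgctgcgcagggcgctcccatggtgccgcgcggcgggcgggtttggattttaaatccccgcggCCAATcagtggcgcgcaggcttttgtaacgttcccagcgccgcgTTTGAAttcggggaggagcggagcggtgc
CCNB1, chr5:69167000-69167149, + strand: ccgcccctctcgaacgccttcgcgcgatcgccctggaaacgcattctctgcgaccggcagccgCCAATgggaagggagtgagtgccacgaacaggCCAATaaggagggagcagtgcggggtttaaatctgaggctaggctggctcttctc
CCNA2, chr4:121823884-121824033, - strand: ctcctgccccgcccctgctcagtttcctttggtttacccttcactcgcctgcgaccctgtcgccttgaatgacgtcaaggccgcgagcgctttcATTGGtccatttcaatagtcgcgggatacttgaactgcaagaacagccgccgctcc

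The first comparison asked how the exonic RNA of these genes differed between the treatment labels within each line. All 10 members were lower in labelled prexasertib in knockout cells and all 10 in parent cells, and in both lines the 3 libraries of one label did not overlap the 3 of the other for any member. Over all 23045 genes tested, 6.83% were called lower in knockout cells and 18.2% in parent cells (edgeR quasi-likelihood test, Benjamini-Hochberg adjusted p of at most 0.05). The 2 labels stood apart in the lower direction for 17.4% of all genes in knockout cells and 21.8% in parent cells. No member was higher in either line by edgeR, also at an unadjusted p under 0.05, and none by DESeq2, while 6.11% of all genes were higher in knockout cells and 18.2% in parent cells. On log2(TPM + 1) the split over all genes in parent cells was 2487 lower and 6365 higher, against 4191 and 4183 by edgeR. The members' median log2 fold change was -0.99 in knockout cells and -1.23 in parent cells, beside medians over all genes of 0.00 and 0.04. A fall of 2-fold or more was seen for 5 of 10 in knockout cells, where 0.746% of all genes fell that far, and for 6 of 10 in parent cells, where 3.35% did. In bulk RNA, fewer cells in G2 and M and less of each RNA per cell cannot be told apart.

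CDK1, the kinase of mitotic entry (hg19 chr10:62538089-62554610), was among the less changed members. CDK1 had 221, 231 and 247 CPM in knockout cells labelled prexasertib, against 321, 312 and 318 CPM in knockout cells labelled DMSO. The parent line had 183, 217 and 208 CPM labelled prexasertib, against 349, 319 and 345 CPM labelled DMSO. Every library labelled prexasertib was below every library labelled DMSO, with the lowest value in parent labelled prexasertib replicate 1. The log2 fold change was -0.44 (SE 0.06, edgeR adjusted p = 4.85e-06) in knockout cells and -0.74 (SE 0.06, edgeR adjusted p = 1.61e-10) in parent cells, or 1.36-fold and 1.67-fold lower.

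The cyclins, which bind and activate CDK1, fell by different amounts. Cyclin A2, which acts in S phase and G2, is encoded by CCNA2 (hg19 chr4:122737599-122745087). CCNA2 had 261, 264 and 277 CPM in knockout cells labelled prexasertib against 399, 394 and 402 CPM labelled DMSO, and 190.0, 221 and 212 CPM in parent cells labelled prexasertib against 336, 329 and 331 CPM labelled DMSO. It fell by 0.58 on the log2 scale in knockout cells and by 0.68 in parent cells (SE 0.05 each, edgeR adjusted p = 1.03e-08 and 1.11e-10). Its exons share 578 bp with EXOSC9, and with reads outside other genes only the changes were -0.59 and -0.68.

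Both B-type cyclins fell further than cyclin A2. CCNB1 (hg19 chr5:68462837-68474072), the main cyclin of mitotic CDK1, had 202, 200.4 and 209.8 CPM in knockout cells labelled prexasertib against 447, 433 and 454 CPM labelled DMSO. Its parent values were 173, 195 and 191 CPM labelled prexasertib against 413, 404 and 406 CPM labelled DMSO. The log2 fold change was -1.12 in knockout cells and -1.13 in parent cells (SE 0.05 each, edgeR adjusted p = 1.42e-14 and 1.80e-15). CCNB2 (hg19 chr15:59397277-59417244) had 119, 116 and 119.5 CPM in knockout cells labelled prexasertib against 232, 225 and 232 CPM labelled DMSO. The parent line had 109, 124 and 123 CPM labelled prexasertib against 306, 295 and 298 CPM labelled DMSO. The libraries labelled prexasertib of both lines therefore lay in one narrow range, while those labelled DMSO differed by line. CCNB2 fell by 0.96 in knockout cells and by 1.34 in parent cells (SE 0.05 each, edgeR adjusted p = 2.99e-13 and 7.62e-17).

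Of the phosphatases that activate CDK1, CDC25C had the larger fold changes and CDC25B the smaller ones. CDC25C (hg19 chr5:137620954-137674044) was the member with the fewest reads, at 14.1, 13.8 and 14.5 CPM in knockout cells labelled prexasertib against 28.5, 27.4 and 29.7 CPM labelled DMSO. Its parent values were 15.6, 17.1 and 17.9 CPM labelled prexasertib against 72.2, 71.6 and 72.6 CPM labelled DMSO. Parent cells labelled DMSO thus stood far above the other 3 groups. The change was -1.01 in knockout cells and -2.10 in parent cells (SE 0.06 each, edgeR adjusted p = 2.67e-12 and 2.32e-19), or 2.02-fold and 4.28-fold lower. CDC25B (hg19 chr20:3767578-3786762) had 111, 107 and 98.2 CPM in knockout cells labelled prexasertib against 164, 174 and 166 CPM labelled DMSO, and 136, 97.5 and 103 CPM in parent cells labelled prexasertib against 159, 173 and 159 CPM labelled DMSO. One library, parent labelled prexasertib replicate 1, was above its 2 fellows, and CDC25B had the largest standard errors of the members. It fell by 0.67 in knockout cells (SE 0.11, edgeR adjusted p = 0.00144) and by 0.54 in parent cells (SE 0.11, edgeR adjusted p = 0.00171). Without that library the parent change was -0.73.

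The mitotic kinases PLK1 and AURKA were among the most changed members. PLK1 (hg19 chr16:23688977-23701688), the polo-like kinase that promotes CDK1 activation, had 81.0, 84.6 and 74.8 CPM in knockout cells labelled prexasertib against 246, 254 and 252 CPM labelled DMSO. The parent line had 100.2, 97.5 and 105 CPM labelled prexasertib against 322, 348 and 331 CPM labelled DMSO. In both lines the libraries labelled prexasertib held about the same share of the DMSO level, and the changes were -1.65 and -1.73 (SE 0.05 each, edgeR adjusted p = 4.05e-17 and 9.96e-19). AURKA (hg19 chr20:54944445-54967393), the Aurora A kinase, had 123, 126 and 125 CPM in knockout cells labelled prexasertib against 325, 314 and 323 CPM labelled DMSO. Its parent values were 111, 131 and 129 CPM labelled prexasertib against 615, 608 and 619.5 CPM labelled DMSO. The 6 libraries labelled prexasertib overlapped between the lines, while the parent libraries labelled DMSO were all above the knockout ones. AURKA fell 2.57-fold in knockout cells (log2 -1.36, SE 0.05, edgeR adjusted p = 2.07e-15) and 4.97-fold in parent cells (log2 -2.31, SE 0.06, edgeR adjusted p = 1.63e-20).

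CDC20, which opens the way out of mitosis (hg19 chr1:43824626-43828874), had 165, 172 and 159 CPM in knockout cells labelled prexasertib against 473, 476 and 487 CPM labelled DMSO. The parent line had 169.5, 176 and 188 CPM labelled prexasertib against 547, 612 and 594 CPM labelled DMSO. It fell by 1.53 and 1.72 on the log2 scale (SE 0.05 each, edgeR adjusted p = 1.77e-16 and 1.31e-18). FOXM1, the transcription factor of the set (hg19 chr12:2966847-2986206), changed least. FOXM1 had 111, 107 and 103 CPM in knockout cells labelled prexasertib against 129, 131 and 119 CPM labelled DMSO, and 144, 126 and 129 CPM in parent cells labelled prexasertib against 154, 163 and 158 CPM labelled DMSO. The labels stood apart in both lines, but closely, with the nearest libraries at 111 against 119 CPM in knockout cells and 144 against 154 CPM in parent cells. The change was -0.24 in knockout cells (SE 0.06, edgeR adjusted p = 0.0036) and -0.25 in parent cells (SE 0.06, edgeR adjusted p = 0.000678). On the authors' TPM values (scaled by the gene's exon length), tested by limma as log2(TPM + 1), neither call held, at -0.22 (adjusted p = 0.0753) and -0.11 (adjusted p = 0.238).

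**Figure D1:**
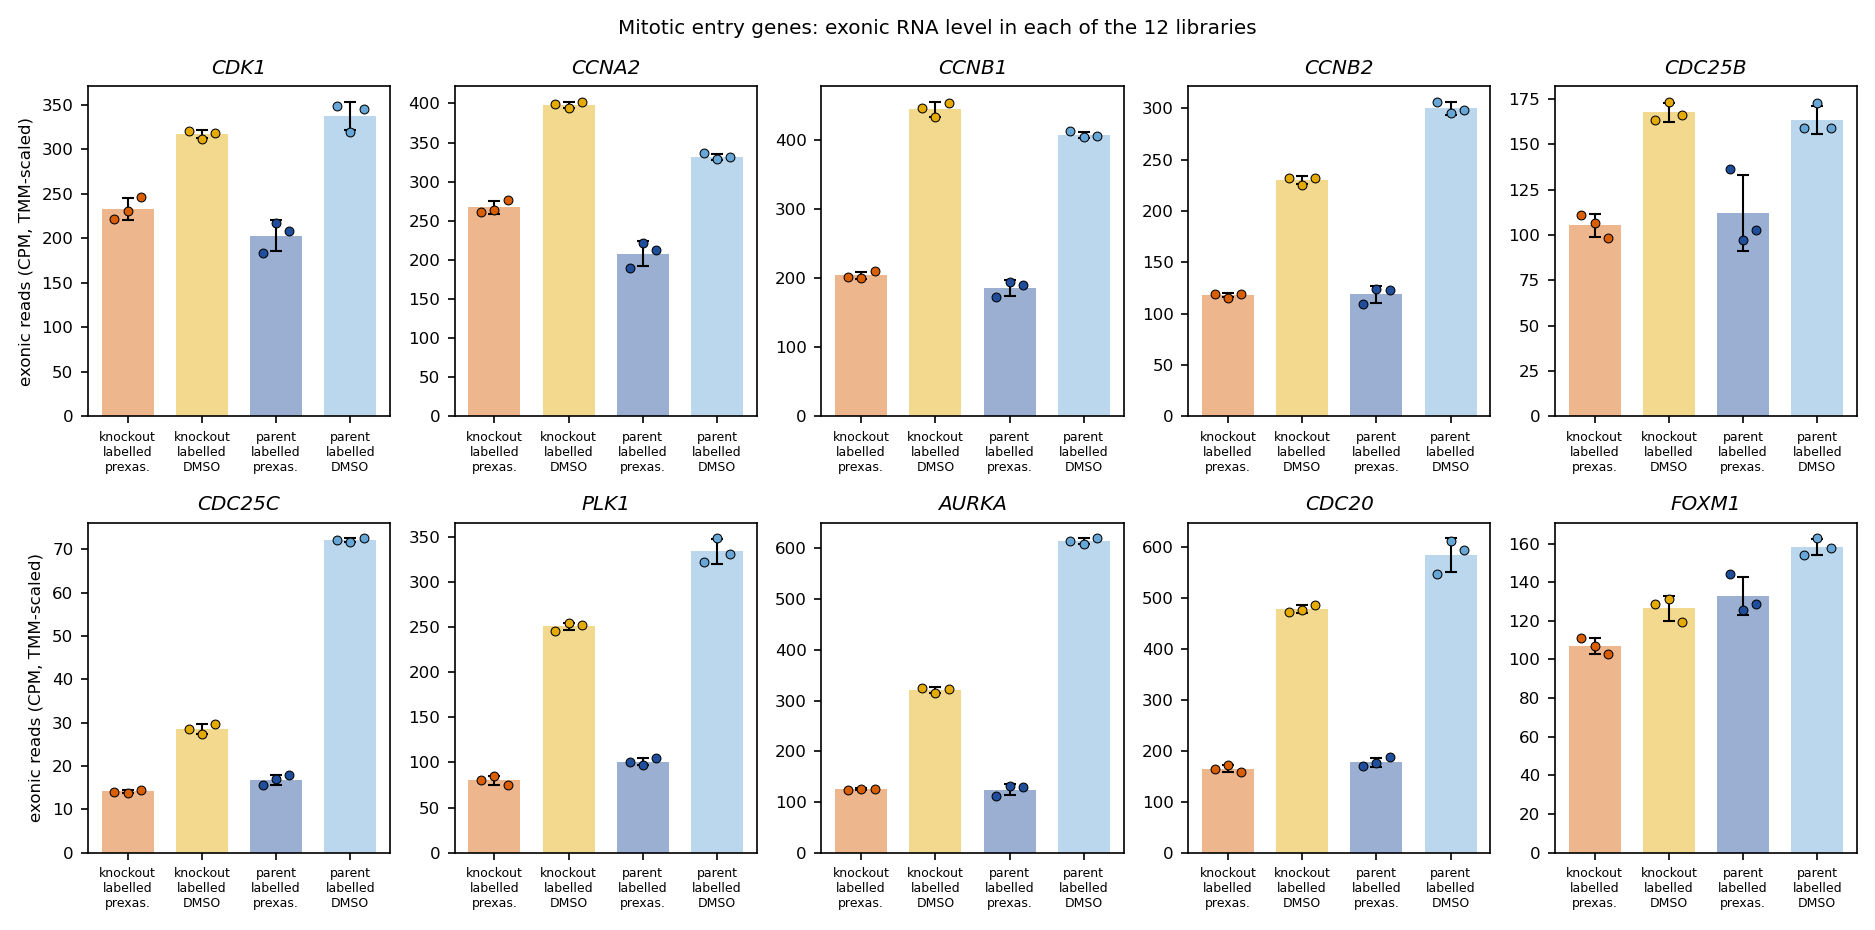
Exonic CPM (vertical axis, from 0) of the 10 genes in knockout and parent cells by treatment label, with points for the 3 libraries of a group, bars for their mean and error lines for the SD. Each gene is lower in the libraries labelled prexasertib than in those labelled DMSO of the same line. The means of CCNA2, CCNB1 and CDC25B are highest in knockout cells labelled DMSO, and those of the other genes in parent cells labelled DMSO.

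Intronic reads, which come mostly from unspliced RNA, gave a second readout of the same genes. In labelled prexasertib 9 of 10 members were lower in knockout cells, where FOXM1 did not pass, and all 10 in parent cells, against 6.15% and 15.6% of the 19852 genes tested on introns. A fall of 2-fold or more was seen for 5 of 10 in knockout cells, where 1.05% of all genes fell that far, and for 9 of 10 in parent cells, where 4.41% did. PLK1 had 19.2, 18.2 and 20.3 intronic CPM in knockout cells labelled prexasertib against 77.3, 71.9 and 78.6 labelled DMSO, and 22.9, 24.4 and 23.2 in parent cells labelled prexasertib against 90.2, 101 and 95.003 labelled DMSO. Its intronic change was -1.98 in knockout cells and -2.02 in parent cells (SE 0.08 each, edgeR adjusted p = 6.73e-13 and 4.29e-14). CDC20 followed, at -1.80 (SE 0.12) and -1.91 (SE 0.11), although its introns held only 8.21 to 51.7 CPM over the libraries. CCNB1 changed by -1.32 and -1.61, and CCNB2 by -1.12 and -1.66, in knockout and in parent cells.

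CDK1 had 146, 149 and 158 intronic CPM in knockout cells labelled prexasertib against 288, 276 and 286 labelled DMSO, and 133, 156 and 156 in parent cells labelled prexasertib against 334, 299.9 and 308 labelled DMSO. Its intronic change was -0.91 in knockout cells and -1.08 in parent cells (SE 0.07 each, edgeR adjusted p = 1.63e-08 and 2.28e-10), beyond its exonic one in both lines. CCNA2 (-0.91 and -1.10) and CDC25B (-0.98 and -1.07) were near CDK1. FOXM1 had 53.8, 51.1 and 54.0 intronic CPM in knockout cells labelled prexasertib against 55.1, 54.2 and 50.8 labelled DMSO, and these groups overlapped (-0.01, 95% interval -0.17 to 0.14, edgeR adjusted p = 0.95). In parent cells it had 58.1, 59.9 and 60.4 labelled prexasertib against 67.7, 66.6 and 76.1 labelled DMSO, a change of -0.24 (SE 0.07, edgeR adjusted p = 0.018). That call was lost without parent labelled DMSO replicate 3 (-0.15, adjusted p = 0.177), with no filter on low counts (-0.18, adjusted p = 0.148) and in a fit of the parent groups alone (-0.23, adjusted p = 0.0903).

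For AURKA and CDC25C the intronic change was smaller than the exonic one in both lines. AURKA had 62.2, 64.3 and 60.7 intronic CPM in knockout cells labelled prexasertib against 144, 146 and 137 labelled DMSO, and 74.9, 67.8 and 64.8 in parent cells labelled prexasertib against 227, 219.5 and 227 labelled DMSO. The intronic change was -1.19 in knockout cells and -1.70 in parent cells (SE 0.07 each, edgeR adjusted p = 1.91e-10 and 7.12e-14). CDC25C had 34.1, 31.6 and 30.9 intronic CPM in knockout cells labelled prexasertib against 47.6, 50.4 and 51.5 labelled DMSO, and 37.4, 39.3 and 37.7 in parent cells labelled prexasertib against 117, 111 and 110.2 labelled DMSO. Its change was -0.63 in knockout cells and -1.56 in parent cells (SE 0.07 each, edgeR adjusted p = 4.1e-06 and 6.48e-13). CDC25C shares 6421 bp with FAM53C, CCNB2 4012 bp with RP11-59H7.3, PLK1 1296 bp with CTD-2196E14.5, and FOXM1 2111 bp with ITFG2, and without a stated strand setting the reads of such pairs cannot be told apart. With reads outside other genes only, the exonic changes in knockout and parent cells were -1.03 and -2.09 for CDC25C, -0.97 and -1.34 for CCNB2, -1.64 and -1.72 for PLK1, and -0.25 and -0.24 for FOXM1, all still called. The intronic changes had 12 alternatives, reads outside other genes among them. Over these, CDC25C changed by -0.68 to -0.60 in knockout and -1.605 to -1.51 in parent cells, and CCNB2 by -1.15 to -1.08 and -1.70 to -1.61. PLK1 changed by -2.03 to -1.94 and -2.06 to -1.97, and FOXM1 by -0.05 to 0.01 and -0.27 to -0.15.

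The exonic less the intronic change was tested in one model with the library as a block, where a value above 0 means that exonic reads fell by less than intronic reads. In knockout cells it was above 0 for CDK1 (0.47, SE 0.05, edgeR adjusted p = 3.78e-05), CCNA2 (0.34, SE 0.07, edgeR adjusted p = 0.00945) and PLK1 (0.34, SE 0.08, edgeR adjusted p = 0.0215), 3 of 10 against 2.35% of the 17090 genes tested. Below 0 was CDC25C (-0.38, SE 0.08, edgeR adjusted p = 0.0156), 1 of 10 against 1.76%. CDC25B (0.32, 95% interval 0.06 to 0.57), CDC20 (0.27, 0.09 to 0.45), CCNB1 (0.21, 0.07 to 0.34) and CCNB2 (0.17, 0.04 to 0.30) did not pass. Neither did FOXM1 (-0.22, -0.39 to -0.06) and AURKA (-0.16, -0.34 to 0.01). At an unadjusted edgeR p under 0.05, 7 members were above 0 and 2 below. At that level 2992 of the 17090 genes passed in either direction. The CDK1 call held without each knockout library in turn. The call of CCNA2 ended without either labelled prexasertib replicate 2 or labelled DMSO replicate 1 (adjusted p = 0.0557 and 0.0688). The calls of CDC25C and PLK1 ended when any one of labelled prexasertib replicates 1 and 2 and labelled DMSO replicates 1 and 3 was left out, at adjusted p values of 0.063 to 0.0904 for CDC25C and 0.0908 to 0.145 for PLK1.

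In parent cells the difference was above 0 for 6 members, against 8.39% of all genes, and below 0 for 2, against 10.8%. The 6 were CDC25B (0.54, SE 0.12), CCNB1 (0.51, SE 0.06), CCNA2 (0.45, SE 0.07), CDK1 (0.37, SE 0.05), CCNB2 (0.35, SE 0.06) and PLK1 (0.32, SE 0.08), with edgeR adjusted p values of at most 0.00821. The 2 below 0 were AURKA (-0.59, SE 0.08, edgeR adjusted p = 8.69e-05) and CDC25C (-0.51, SE 0.08, edgeR adjusted p = 0.000254), while CDC20 (0.21, adjusted p = 0.078) and FOXM1 (0.01, adjusted p = 0.965) did not pass. CDC20 passed without parent labelled DMSO replicate 1 (0.27, adjusted p = 0.0347) and with reads outside other genes (0.25, adjusted p = 0.0433).

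The share of a gene's reads in introns was also taken per library from the same counts. Unlike the tested difference, it is not scaled for the library's intronic share over all genes. For AURKA it was 14.9, 14.7 and 14.4% in knockout cells labelled prexasertib against 13.4, 14.1 and 12.53% labelled DMSO, and 22.3, 15.5 and 15.02% in parent cells labelled prexasertib against 11.3, 10.199 and 10.4% labelled DMSO. For CDC25C it was 45.7, 43.7 and 42.5% in knockout cells labelled prexasertib against 36.9, 39.3 and 36.9% labelled DMSO, and 50.5, 44.9 and 42.5% in parent cells labelled prexasertib against 35.8, 32.7 and 32.5% labelled DMSO. The labels did not overlap in either line for either gene. The share of FOXM1 was also higher in labelled prexasertib without overlap, averaging 14.6 against 12.8% in knockout and 14.4 against 12.6% in parent cells. In knockout cells the shares of CDK1, CCNA2, CCNB1, CCNB2, CDC25B, PLK1 and CDC20 were lower without overlap. In parent cells those of CCNA2, CCNB1 and CDC25B were, while CDK1, CCNB2, PLK1 and CDC20 overlapped. How many of all genes stood apart in this way was not counted. The highest share of AURKA and of CDC25C was in parent labelled prexasertib replicate 1, the library with 30.3% intronic reads over all genes. Without it the exonic less intronic change in parent cells was -0.46 for AURKA (adjusted p = 7.62e-07) and -0.48 for CDC25C (adjusted p = 0.000158), and that of CDC25B was 0.32 (adjusted p = 0.0042).

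**Figure D2:**
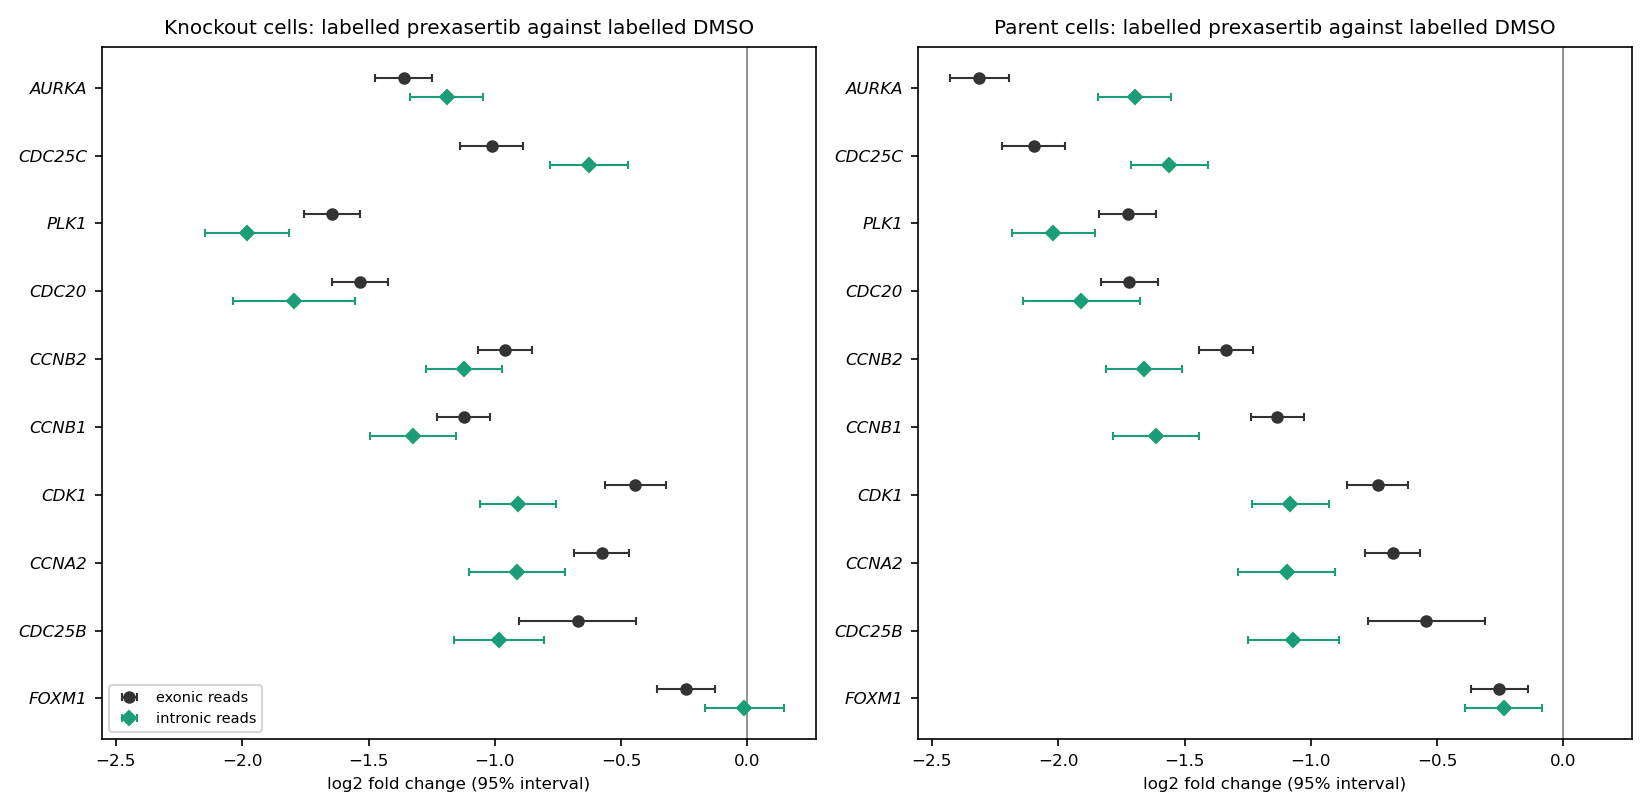
Log2 fold change of labelled prexasertib against labelled DMSO (horizontal axis) from exonic reads (circles) and intronic reads (diamonds), for knockout cells on the left and parent cells on the right, with 95% intervals as lines. In parent cells the intronic point lies left of the exonic one for CDK1, PLK1 and the cyclins and right of it for AURKA and CDC25C.

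Whether the treatment difference itself differed between the lines was tested by the interaction, the log2 fold change in knockout cells less that in parent cells. It was above 0 for 4 of 10 members, against 9.53% of all genes, and below 0 for none by edgeR, as also by DESeq2 and at an unadjusted p under 0.05, against 7.32% of all genes. CDC25C stood at 1.09 (SE 0.08, edgeR adjusted p = 6.64e-10), AURKA at 0.95 (SE 0.08, edgeR adjusted p = 1.34e-09), CCNB2 at 0.38 (SE 0.07, edgeR adjusted p = 0.000498) and CDK1 at 0.29 (SE 0.08, edgeR adjusted p = 0.0147). Above 0 means here that the gene was less reduced in knockout than in parent cells labelled prexasertib. The CDK1 call was lost without parent labelled DMSO replicate 3 (0.28, adjusted p = 0.0558) and on log2(TPM + 1) (0.16, adjusted p = 0.287).

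CCNB1 (0.01, 95% interval -0.14 to 0.16), PLK1 (0.08, -0.07 to 0.23), CCNA2 (0.10, -0.05 to 0.25), FOXM1 (0.01, -0.15 to 0.17) and CDC25B (-0.13, -0.46 to 0.20) did not pass the interaction test. CDC20 was at 0.19 (SE 0.08, edgeR adjusted p = 0.097), and passed by DESeq2 (adjusted p = 0.044), with reads outside other genes (adjusted p = 0.0493) and without parent labelled DMSO replicate 1 (adjusted p = 0.01), parent labelled prexasertib replicate 1 (adjusted p = 0.0172) or knockout labelled prexasertib replicate 3 (adjusted p = 0.0418). On introns the interaction was above 0 for CDC25C (0.93, SE 0.10, edgeR adjusted p = 4.92e-06), CCNB2 (0.54, SE 0.10, edgeR adjusted p = 0.00157) and AURKA (0.51, SE 0.10, edgeR adjusted p = 0.00176), 3 of 10 against 5.82% of all genes, and below 0 for none by edgeR, as also by DESeq2 and at an unadjusted p under 0.05, against 4.02%. Intronic CDK1, at 0.17 (95% interval -0.04 to 0.39), did not pass. Intronic CCNB1 (0.29, 0.05 to 0.52, edgeR adjusted p = 0.117) and FOXM1 (0.22, 0.01 to 0.44, edgeR adjusted p = 0.187) did not pass either. CCNB1 was called there in 1 of 17 alternatives.

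The lines were then compared under each treatment label. Under labelled prexasertib, knockout cells had lower RNA of PLK1 (-0.33), FOXM1 (-0.31) and CDC25C (-0.25), and higher RNA of CCNA2 (0.36) and CDK1 (0.20), with edgeR adjusted p values of 2.76e-05, 0.000107, 0.00296, 8.07e-06 and 0.0112. These 3 lower and 2 higher members stand beside 13.5% and 14.5% of all genes, and 2 of 10 is near its share. The members' median log2 fold change was -0.05, beside -0.02 over all genes. The CDK1 call was lost without knockout labelled prexasertib replicate 3 (adjusted p = 0.0685). AURKA (0.01, 95% interval -0.10 to 0.13) and CDC25B (-0.09, -0.32 to 0.14) did not pass. CCNB1 (0.13, 0.03 to 0.24) missed the threshold at an adjusted p of 0.0511, and was called higher in 5 of 14 alternatives, which were DESeq2 (adjusted p = 0.0223), RLE factors (0.0476), reads outside other genes (0.0479), log2(TPM + 1) (0.00082) and the fit without parent labelled prexasertib replicate 2 (0.0269). CDC20 (-0.10, -0.21 to 0.01) passed as lower only without parent labelled prexasertib replicate 1 (-0.13, adjusted p = 0.0189). CCNB2 was at -0.01 (-0.11 to 0.10) but at 0.14 on log2(TPM + 1), where it was called higher, as was AURKA at 0.17. CDC25C (-0.09) and FOXM1 (-0.15) did not pass on that scale, where 1314 genes were lower and 6339 higher, against 3118 and 3349 by edgeR.

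Under labelled DMSO, knockout cells had lower RNA of CDC25C, AURKA, PLK1, CCNB2, FOXM1 and CDC20, 6 of 10 against 20.4% of all genes. The log2 fold changes were -1.34, -0.94, -0.41, -0.38, -0.32 and -0.29 (SE 0.05 to 0.06, edgeR adjusted p of at most 7.83e-05). CCNA2 was higher at 0.26 (SE 0.05, edgeR adjusted p = 0.000216), 1 of 10 against 19.6%. CCNB1 (0.13, 95% interval 0.02 to 0.23) missed the threshold at an adjusted p of 0.0505, and was called higher by DESeq2 (adjusted p = 0.0387), in the fit of only the groups compared (adjusted p = 0.002) and on log2(TPM + 1) (adjusted p = 3.14e-05). CDC25B (0.04, -0.19 to 0.27) was called higher on log2(TPM + 1) only (0.31, adjusted p = 0.0438). CDK1 did not pass at -0.09 (-0.21 to 0.03), was called lower in the fit of only the groups compared (-0.09, adjusted p = 0.0493) and was called higher on log2(TPM + 1) (0.19, adjusted p = 0.0423). On that scale the median of all genes was 0.15 above 0 under labelled DMSO, with 1822 genes lower and 9162 higher, against 4697 and 4515 by edgeR. There CCNB2 (-0.10), FOXM1 (-0.04) and CDC20 (-0.01) no longer passed as lower, while CDC25C, AURKA and PLK1 did.

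**Figure D3:**
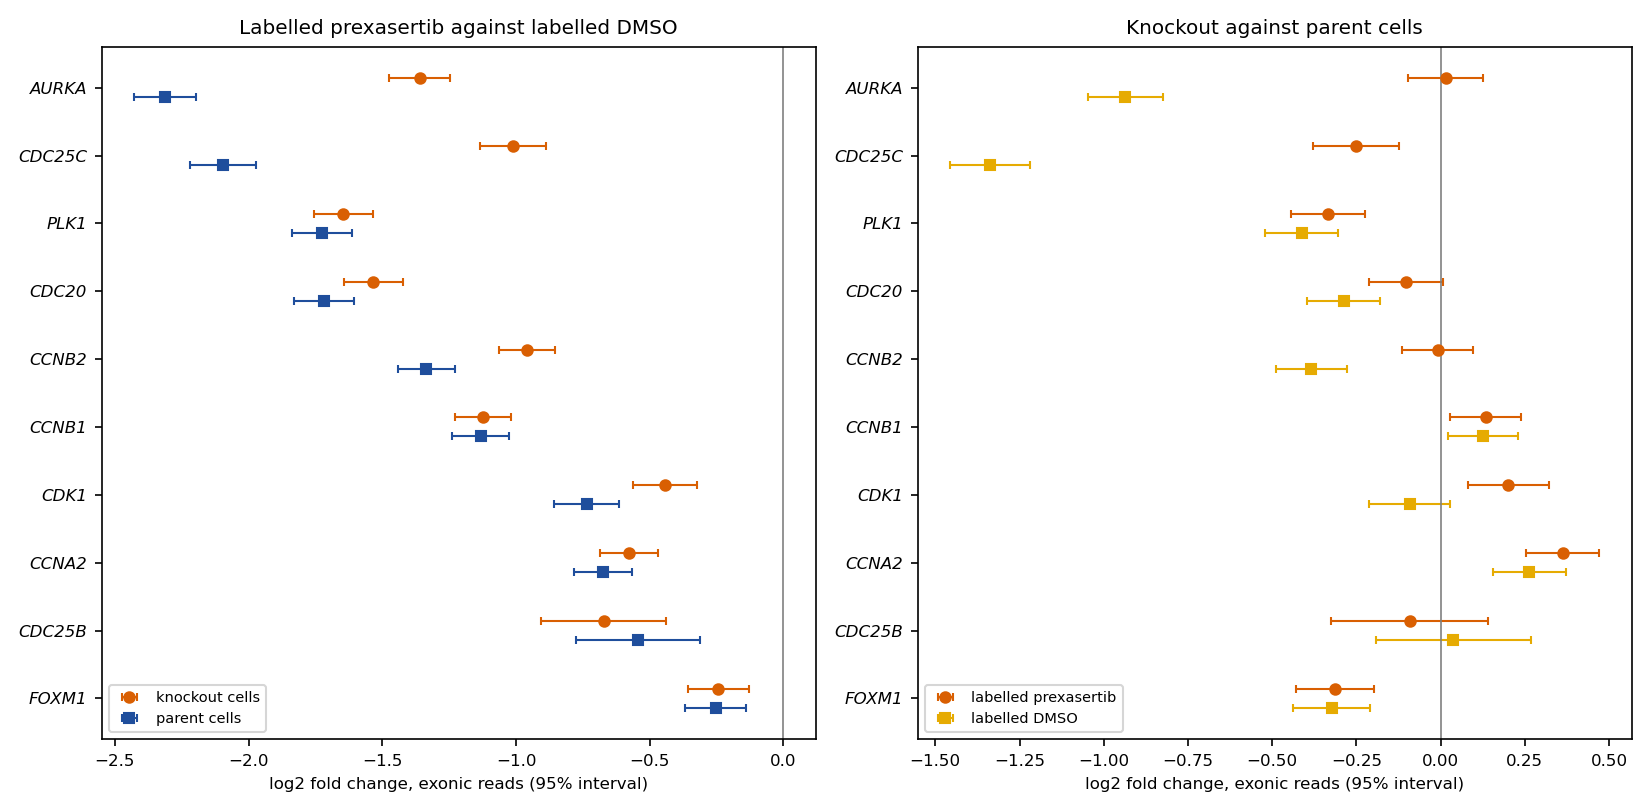
Log2 fold changes of exonic reads (horizontal axes) with 95% intervals as lines, for labelled prexasertib against labelled DMSO in knockout (circles) and parent (squares) cells on the left, and for knockout against parent cells under labelled prexasertib (circles) and labelled DMSO (squares) on the right. The lines differ most in AURKA and CDC25C, whose knockout and parent values are -1.36 and -2.31, and -1.01 and -2.10.

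Levels of different genes were compared on the authors' TPM, which divides by the total exon length listed for the gene. That length need not be the length of the transcripts expressed, so the order of the genes rests partly on the annotation. In knockout cells labelled prexasertib CCNA2 had the highest level, 122 ± 5.88 TPM (SD, n = 3), above CDC20 (104 ± 3.05) and CCNB1 (102 ± 4.22), which overlapped. AURKA, at 58.4 ± 1.57 TPM, was below CDK1 (76.2 ± 5.48). In knockout cells labelled DMSO, CDC20 led at 297 ± 6.91 TPM, followed by CCNB1 (219 ± 1.22), CCNA2 (179.9 ± 2.77), CCNB2 (159.0 ± 1.32), AURKA (148 ± 1.32) and CDK1 (102 ± 1.27), each above the next in every library. CCNA2 thus came before CDC20 and CCNB1 in knockout cells labelled prexasertib and after them in knockout cells labelled DMSO.

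In parent cells labelled prexasertib CDC20 (100.1 ± 2.03 TPM) led, CCNA2 (85.4 ± 5.01) and CCNB1 (83.5 ± 3.55) overlapped, and AURKA (52.0 ± 3.30) was below CDK1 (59.6 ± 3.96). PLK1 (24.4 ± 0.814) was below FOXM1 (32.4 ± 3.41) and CDC25B (31.2 ± 6.83), which overlapped. In parent cells labelled DMSO the order was CDC20 (298 ± 5.56), AURKA (234 ± 10.8), CCNB2 (171 ± 10.95), CCNB1 (166 ± 9.19), CCNA2 (124 ± 6.88), CDK1 (90.0 ± 7.38), PLK1 (73.0 ± 2.04), CDC25B (41.0 ± 1.83), FOXM1 (34.9 ± 0.922) and CDC25C (24.7 ± 1.12). There all neighbours but CCNB2 and CCNB1 kept that order in every library. AURKA was the gene whose place differed most between the labels of the parent line. CDC25C had the lowest TPM of the members in the other 3 groups too, 5.95 ± 0.242 in knockout cells labelled prexasertib, 11.8 ± 0.237 in knockout cells labelled DMSO and 6.37 ± 0.228 in parent cells labelled prexasertib. Together the 10 genes took 0.144 to 0.146% of exonic reads in knockout cells labelled prexasertib against 0.28% in each knockout library labelled DMSO, and 0.138 to 0.14% in parent cells labelled prexasertib against 0.314 to 0.32% labelled DMSO.

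Genes around the members in the pathway were read from 6 lists, chosen, like the members, with earlier results of these data known. Their counts stand beside 6.83% of all genes lower and 6.11% higher in knockout cells, and 18.2% lower and 18.2% higher in parent cells, and beside medians over all genes of 0.00 and 0.04. Of 22 tested mitotic kinases and their activators, 14 fell and 1 rose in knockout cells labelled prexasertib, and 17 fell and 1 rose in parent cells, with median log2 fold changes of -0.37 and -0.76. BORA, the protein through which Aurora A activates PLK1, averaged 33.8 ± 0.722 CPM in knockout cells labelled prexasertib against 77.1 ± 0.37 CPM labelled DMSO, and 35.01 ± 2.78 CPM in parent cells labelled prexasertib against 128 ± 4.99 CPM labelled DMSO (SD, n = 3 each). It changed by -1.19 and -1.87 (SE 0.06 each, edgeR adjusted p = 2.8e-14 and 7.07e-19). TPX2, which activates Aurora A on the spindle, changed by -0.79 and -1.26, and CDCA8, a subunit of the Aurora B complex, by -1.34 and -1.46 (SE 0.05 to 0.06).

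Of 10 tested brakes of CDK1 and checkpoint kinases, 1 fell and 1 rose in knockout cells, with a median of 0.01, and 5 fell and 1 rose in parent cells, with a median of -0.12. The knockout counts are near the shares of all genes called, 6.83% and 6.11%. WEE1, the kinase that inhibits CDK1, changed by -0.44 in knockout cells and -0.74 in parent cells (SE 0.05 each, edgeR adjusted p = 2.94e-07 and 4.2e-12). CDKN1A, the CDK inhibitor p21, averaged 6.55 ± 0.174 CPM in knockout cells labelled prexasertib against 6.79 ± 0.144 CPM labelled DMSO, and 2.02 ± 0.057 CPM in parent cells labelled prexasertib against 15.04 ± 0.132 CPM labelled DMSO. It changed by -0.05 (SE 0.09, edgeR adjusted p = 0.79) and by -2.90 (SE 0.10, edgeR adjusted p = 3.05e-18). GADD45A, a stress-induced inhibitor of CDK1 and cyclin B1, was at -0.27 (SE 0.10, edgeR adjusted p = 0.0769) in knockout cells and fell by 0.86 (SE 0.10, edgeR adjusted p = 1.24e-07) in parent cells.

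Of 26 genes of the anaphase-promoting complex and the spindle checkpoint, 11 fell and none rose in knockout cells by edgeR (also none by DESeq2, and 1 at an unadjusted p under 0.05), and 15 fell and 2 rose in parent cells, with medians of -0.08 and -0.22. All genes were called lower in 6.83% and higher in 6.11% in knockout cells, and 18.2% each way in parent cells, so the 2 of 26 that rose in parent cells are below the share of all genes. The ubiquitin-conjugating enzymes of the complex, UBE2C (-1.03 and -1.52) and UBE2S (-1.14 and -1.51), and the separase gene ESPL1 (-0.92 and -1.28) fell in both lines (SE 0.05 to 0.06). Of 15 genes of the MuvB, B-MYB and NF-Y complexes none fell by edgeR (also none by DESeq2, and 1 at an unadjusted p under 0.05) and 2 rose in knockout cells, and 6 fell and 5 rose in parent cells, with medians of 0.02 and -0.04. With 6.83% of all genes lower and 6.11% higher in knockout cells, 0 and 2 of 15 are near those shares, and in parent cells 18.2% of all genes were called each way. TFDP1, the partner of E2F factors, rose by 0.24 in knockout cells and 0.48 in parent cells (SE 0.05 each), RBBP4, a MuvB subunit, was at 0.15 (adjusted p = 0.0701) and rose by 0.40, and NFYB, an NF-Y subunit, was at 0.00 (adjusted p = 0.999) and fell by 0.50.

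Of 18 tested cyclins, kinases and E2F factors of G1 and S phase, 1 fell and 8 rose in knockout cells, and 5 fell and 10 rose in parent cells, with medians of 0.19 and 0.21. Against these stand 6.83% of all genes lower and 6.11% higher in knockout cells and 18.2% each way in parent cells, and the 1 of 18 that fell in knockout cells is near its share. CCNE2, the S phase cyclin E2, averaged 94.2 ± 7.12 CPM in knockout cells labelled prexasertib against 53.1 ± 0.681 CPM labelled DMSO, and 61.1 ± 4.61 CPM in parent cells labelled prexasertib against 34.5 ± 1.63 CPM labelled DMSO. It rose by 0.83 and 0.82 (SE 0.06 each, edgeR adjusted p = 1.58e-10 and 5.27e-11), opposite in sign to the 10 members. E2F8, a repressor of E2F targets, was at -0.14 (adjusted p = 0.122) in knockout cells and fell by 1.27 in parent cells, and CDKN1B, the CDK inhibitor p27, was at 0.04 (adjusted p = 0.761) and fell by 0.75. Of 9 tested paralogs of the members, 3 fell and 1 rose in knockout cells, and 4 fell and 1 rose in parent cells, with medians of -0.22 and -0.24. The 1 of 9 that rose is near the 6.11% of all genes in knockout cells and below the 18.2% in parent cells. Aurora B (AURKB) fell by 0.55 and 1.30, and FZR1, the counterpart of CDC20 after mitosis, by 0.98 and 0.81 (SE 0.06 to 0.07). PLK3, a stress-responsive polo-like kinase, was at -0.22 (adjusted p = 0.115) in knockout cells and fell by 1.51 in parent cells.

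**Figure D4:**
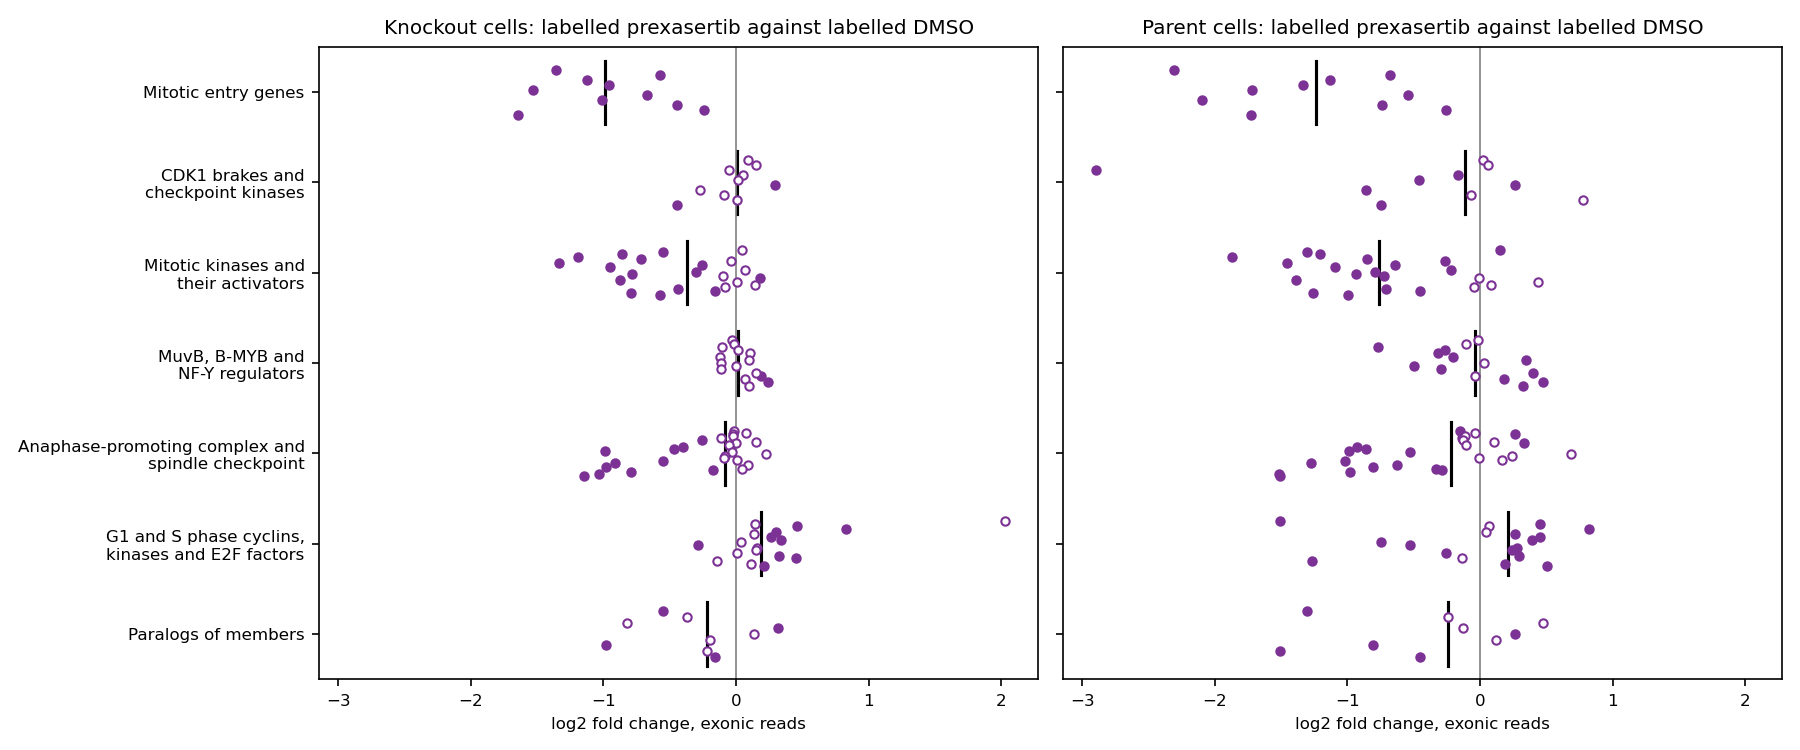
Log2 fold change of exonic reads (horizontal axis) for each gene of the 10 members and of the 6 lists, for knockout cells on the left and parent cells on the right, with filled points for an edgeR adjusted p of at most 0.05, open points for the others and a vertical line at the list's median. All 10 members lie below 0 in both lines, at medians of -0.99 and -1.23, while the G1 and S phase list has medians of 0.19 and 0.21.

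The members also differed in how near their levels over the 12 libraries lay to the median profile of the 10, which includes each member itself. A gene lies far from it if its changes are larger or smaller than the median, also when they share its direction. With each gene's log2 CPM centred on its mean, CCNB2 (root mean square difference 0.07) and CCNB1 (0.13) were closest to the median of the 10 members, and CDC25C (0.46), AURKA (0.45) and FOXM1 (0.45) farthest. Among 14620 other genes averaging a log2 CPM of 1 or more, the 5 closest to that median profile were KIF23 (0.06), CKS2 (0.06), KIF14 (0.07), NEK2 (0.08) and SPDL1 (0.08), where the median gene was at 0.58. KIF23 and KIF14 are motors of cytokinesis, CKS2 is a small CDK subunit, NEK2 a centrosome kinase and SPDL1 a kinetochore adaptor of dynein. These were picked by their likeness and are given as a description only.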

How the data were processed

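RNA from 12 libraries was sequenced as 1 paired-end run after TRIzol extraction, per the labels' protocols. Per the submitters' processing notes, the build was hg19, and Picard 2.9.2, STAR 2.5.4a, Trimmomatic 0.39 and Trim Galore 0.6.2 were used. The counter, annotation and strand setting are not given in the sources used here. The deposited tables list, per the file headers, exonic and intronic read counts per gene, counts in regions outside other genes, and TPM as the authors computed it. Genes not listed were taken as 0, and 36 duplicate entries for pseudoautosomal genes on Y were dropped. Gene coordinates come from the tables (hg19), and promoter coordinates are RefSeq's in GRCh38.p14. Libraries of a group all differed by more than sampling noise (chi-square over its degrees of freedom, 4.29 to 33.51).

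Exonic counts and intronic counts, as deposited, were each tested with edgeR 4.0.16 in R 4.3.3 (filterByExpr, minimum count 10, TMM, 4 group means over all 12 libraries, robust quasi-likelihood F test). Benjamini-Hochberg adjusted p values are over all genes tested, and calls were made at 0.05. Standard errors were derived from the F statistic. Exonic and intronic counts entered 1 model of 24 columns for their difference. Alternatives were RLE factors, DESeq2 1.42.0, no filter, a replicate block, only the groups compared, exonic plus intronic reads, reads outside other genes, limma 3.58.1 on log2(TPM + 1), and leaving out each library. The fits were tested on simulated data.

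The members and lists were chosen with earlier results of these data known. The 6 lists hold 103 genes, 101 of them in the files: brakes of CDK1, mitotic kinases, MuvB and NF-Y regulators, anaphase-promoting complex, G1 and S phase genes, and paralogs. The text names all members, the 3 genes of each list with the smallest p in parent cells, and the 5 genes most alike. Markers of T lymphoblasts, B cells, myeloid cells, and epithelial, fibroblast and erythroid cells were read from TPM.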

Additional observations from a re-analysis of the deposited data

Results flagged for a closer look

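The treatment difference of several genes differed between the lines by the interaction test (log2 fold change in knockout cells less that in parent cells, edgeR adjusted p of at most 0.05), which is what singles out the values given here. All change sign if the library names hold in place of the record labels. On exonic reads the members were CDC25C at 1.09, AURKA at 0.95, CCNB2 at 0.38 and CDK1 at 0.29. On intronic reads they were CDC25C at 0.93, CCNB2 at 0.54 and AURKA at 0.51.

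The other named genes were picked by the smallest p in parent cells, which favours genes that changed more there, so that the sign of their interactions is partly set by that choice. Their exonic interaction was 2.85 for CDKN1A, 1.29 for PLK3 and 1.12 for E2F8, each lower by more in parent cells labelled prexasertib. It was 0.79 for CDKN1B, 0.75 for AURKB, 0.68 for BORA and 0.59 for GADD45A. NFYB stood at 0.50, UBE2C at 0.49, TPX2 at 0.47, UBE2S at 0.37, ESPL1 at 0.36 and WEE1 at 0.30. Below 0 were RBBP4 at -0.25 and TFDP1 at -0.23, both higher by more in parent cells labelled prexasertib. No cause of these differences was tested.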

How the results depend on the processing

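Over all alternatives and comparisons, 1295 of the members' recomputed changes kept their side of the threshold (with the same sign wherever they were called, while values below the threshold could change sign), 23 lost and 20 gained a call, and 2 reversed with a call on 1 side. The reversals were on log2(TPM + 1), CDK1 in the lines under labelled DMSO (0.19) and CCNB2 in the lines under labelled prexasertib (0.14). That scale also gave, of members, 3 lower and 4 higher between the lines under labelled DMSO and 1 lower and 5 higher under labelled prexasertib, and of all genes 1822 lower and 9162 higher, 1314 lower and 6339 higher, 2487 lower and 6365 higher in parent cells, 1043 lower in knockout cells, and 2878 below and 1104 above 0 for the interaction; its median over all genes was 0.15, 0.08 and 0.09 for the first 3. DESeq2 and the fit of only the groups compared each called 2 members higher under labelled DMSO. The fit of only the groups compared gave 2476 genes lower and 2402 higher in knockout cells, and on introns 2539 and 2656, and 1958 higher in parent cells. The interaction fell below 0 for 1118 genes with exonic plus intronic reads and, on introns, for 1650 with no filter. The cause was not tested.

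Leaving out 1 library each, the interaction was below 0 for 954 to 2137 genes, and on introns below 0 for 422 to 1327 and above 0 for 703 to 1596. In knockout cells 1048 to 1292 genes were lower and 857 to 1134 higher, on introns 764 to 836 and 644 to 724, and for exonic less intronic change 116 to 141 and 165 to 214, with 0 to 1 members below and 1 to 3 above 0. For exonic less intronic change in parent cells 825 to 1472 were above 0, and 1 to 3 members were higher in knockout cells under labelled prexasertib. The counts of 10 lower members in both lines held in every alternative but log2(TPM + 1), where FOXM1 was lost.

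No pairing of the samples by replicate number was seen. Same-numbered libraries correlated at -0.27 to 0.16 (over 0.1 for 4 of 18 pairs), and the best partner had the same number in 6. With 3 libraries a group, this cannot show that the samples were not handled in pairs. With the replicate block, 10 members were lower in both lines, and 1616 and 4194 genes. Precision is limited by 3 libraries a group, and by as few as 160 intronic reads for a member.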
